A study of Homo sapiens with 3 samples.

Results

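Tubulin isotypes are the separate gene products that make up the alpha and beta subunits of microtubules, and 10 of them were followed by gene symbol: the alpha isotypes TUBA1A, TUBA1B, TUBA1C and TUBA4A and the beta isotypes TUBB, TUBB2A, TUBB2B, TUBB3, TUBB4B and TUBB6. These 10 genes were among 18856 genes listed in at least 1 of the 3 libraries. All 10 were listed in both LIEA libraries, and 9 were listed in the Smart-seq2 library, where TUBB2B was missing. The rule used the symbols alone and no measured value, although the members were chosen with earlier results of these data known.

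The study asked whether low-input equal-amplification (LIEA) RNA-seq, in which fragmented mRNA is turned into an Ion Torrent library and amplified only at the library stage, measures genes with less bias than Smart-seq2, in which full-length cDNA is primed from the polyA tail and amplified before the library is built. HBE, an epithelial line of the human bronchus, was measured by both methods, and A549, a line from a human lung adenocarcinoma, was measured by LIEA. The LIEA libraries were read on an Ion Torrent instrument and the Smart-seq2 library on an Illumina instrument. In the paper both methods were also judged against Illumina bulk mRNA-seq, and LIEA of HBE was repeated as a biological replicate. The bulk data and the repeat are not among the 3 libraries used here. No treatment or engineered allele is given for these libraries in the sources used here. Each was made from 10 pg of polyA + mRNA, and each group held 1 library. No difference between libraries therefore had a replicate check, and all intervals are 95% intervals that cover counting error only, PCR-amplified reads not being independent molecules.

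An alpha and a beta subunit bind each other as a heterodimer, and heterodimers add to the ends of the microtubule. The isotypes of a family are much alike as proteins, and many, though not all, differ mainly in the acidic tail at the C-terminus. This tail projects from the microtubule surface and carries modifications such as polyglutamylation and detyrosination. Dividing cells of many tissues use TUBA1B, TUBA1C, TUBB and TUBB4B, whereas TUBA1A, TUBB2A, TUBB2B and TUBB3 are best known from neurons and TUBB3 is also studied in lung cancer cells.

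The isotypes are alike in nucleotide sequence too, so how far a read could tell them apart was examined first on the reference transcripts (GENCODE release 44 on GRCh37, the hg19 assembly). Coding sequences were 85.0 to 97.3% identical over the 6 alpha pairs, 81.3 to 98.1% over the 15 beta pairs and 56.6 to 59.9% over the 24 pairs of an alpha and a beta gene. TUBA1B lies at chr12:49521565-49525180 on the minus strand, TUBA1A at chr12:49578469-49582863 on the same strand 53288 bases away, and TUBA1C at chr12:49582519-49668383 on the plus strand. Exons of TUBA1A and TUBA1C overlap by up to 104 bases on opposite strands. TUBB2A, at chr6:3153731-3157778, and TUBB2B, at chr6:3223558-3231964, also lie near each other, on the minus strand with 65779 bases between them. The other members lie apart from these and from each other: TUBA4A at chr2:220114432-220142624 (minus strand), TUBB at chr6:30685212-30693315 (plus), TUBB3 at chr16:89987800-90005169 (plus), TUBB4B at chr9:140135739-140138159 (plus) and TUBB6 at chr18:12307668-12344319 (plus). On the opposite strand, exons of STK16 overlap those of TUBA4A by up to 628 bases and exons of TUBA1B-AS1 those of TUBA1B by up to 854 bases, and whether reads were counted by strand is not given in the sources used here. Every canonical transcript has 4 exons and a coding part of 1335 to 1356 bases.

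The end of the coding sequence, which encodes the C-terminal tail, shows which isotypes are alike at that end, though not along the whole transcript. The last 60 coding bases, stop codon included and all within the last coding exon, are given below 5′ to 3′ on the coding strand, with capitals for bases that lie in no 42-nt stretch found identically in another member's transcript, the authors having kept Ion Torrent reads longer than 42 nt. The near-identical pair TUBB2A and TUBB2B is shown beside TUBB3, the isotype that differed most between the methods, and TUBB, the most abundant beta isotype. They lie at chr6:3154097-3154156, chr6:3224985-3225044, chr16:90002153-90002212 and chr6:30692115-30692174.
TUBB2A: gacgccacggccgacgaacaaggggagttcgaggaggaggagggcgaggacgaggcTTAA
TUBB2B: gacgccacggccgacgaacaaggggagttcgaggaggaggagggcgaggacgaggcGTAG
TUBB3: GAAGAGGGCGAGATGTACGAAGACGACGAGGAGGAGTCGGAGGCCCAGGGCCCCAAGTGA
TUBB: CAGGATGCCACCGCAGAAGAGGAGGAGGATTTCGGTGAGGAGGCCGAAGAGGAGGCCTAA

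Only 4 bases at the very end of the TUBB2A and TUBB2B tails were in capitals, against all 60 in TUBB3 and TUBB. The same bases of TUBA1A and TUBA1B, not printed here, had 0 capitals. Along the whole TUBB3 transcript, 26.2% of bases lay in a 42-nt stretch found identically in another member. The longest identical coding stretch was 725 nt for TUBB2A and TUBB2B, 326 nt for TUBA1B and TUBA1C and 221 nt for TUBA1A and TUBA1B.

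Along the whole transcripts, windows of 87 nt were compared with those of the other members, allowing 3 mismatches, the number of errors the authors allowed in Ion Torrent reads. Another member matched 80.6% of the windows of TUBA1B, 71.4% of TUBA1A, 69.9% of TUBB2A, 58.2% of TUBB2B and 41.7% of TUBA1C. The shares were 11.9% for TUBB3, 8.80% for TUBB4B and 4.80% for TUBB6, and 0% for TUBA4A and TUBB. Thus 5 members share much of their sequence with a paralog, whereas TUBA4A and TUBB have no such window. In the coding part alone, the share was 96.9% for TUBA1B, 89.9% for TUBA1C, 88.2% for TUBA1A and 84.7% for both TUBB2A and TUBB2B. Windows that reach outside the coding part were matched in at most 4.43% in any member. With no mismatch allowed, the whole-transcript shares were 36.9% for TUBA1B, 25.3% for TUBA1A, 54.9% for TUBB2A and 45.8% for TUBB2B, and lower for TUBA1C. The shares with 3 mismatches allowed thus include many windows that differ between members by up to 3 bases. How reads that match several genes were assigned is not given in the sources used here, so the split between TUBA1A, TUBA1B and TUBA1C, and that between TUBB2A and TUBB2B, is uncertain, and their sums are given beside the single values.

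**Figure D1:**
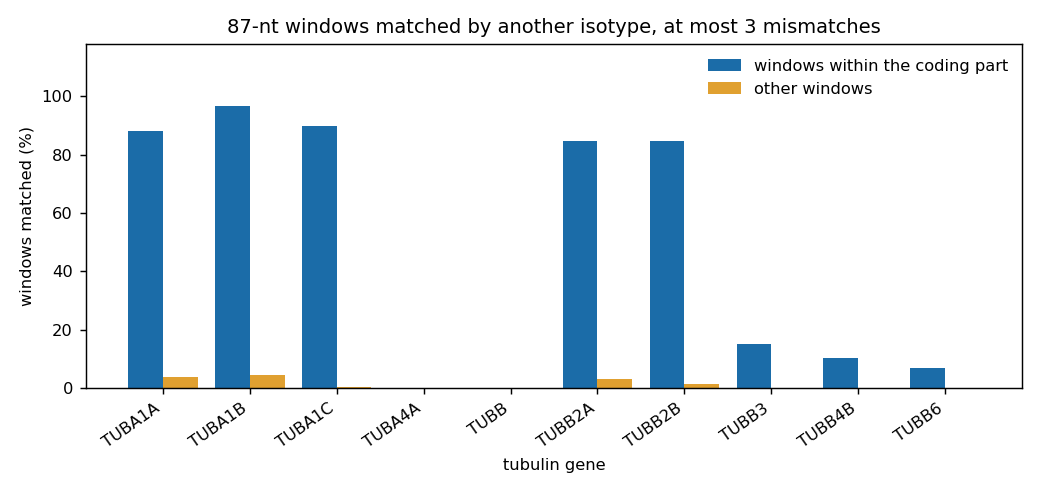
Percent of 87-nt windows of each isotype's transcript that another isotype matches with at most 3 mismatches, for windows within the coding part (blue) and for the other windows (orange). The 3 TUBA1 genes and the TUBB2 pair reach 84.7 to 96.9% in the coding part, while TUBA4A and TUBB have no matched window.

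The HBE LIEA library held 4605855 mapped reads, the A549 LIEA library 4154060 and the HBE Smart-seq2 library 9845150, with 12300, 12566 and 12914 quantified genes, which are genes with at least 10 reads. The totals and the reads of each gene were worked out from the deposited log2 rpkM, where rpkM is the reads of a gene divided by its length and by the mapped reads of the library. The cell lines were checked against markers of several cell types. All 6 epithelial markers (EPCAM, CDH1, KRT5, KRT8, KRT18 and KRT19) had at least 10 reads in every library, with a summed level of 2252 rpkM in HBE LIEA, 8532 in A549 LIEA and 3849 in Smart-seq2. KRT8 (3957 rpkM) and KRT18 (4302 rpkM) made most of the A549 sum. The others were lower in A549 than in HBE by LIEA: KRT5 at 1.88 against 552 rpkM, EPCAM at 7.29 against 57.1, CDH1 at 19.4 against 57.1 and KRT19 at 245 against 337. The 4 fibroblast markers were at 0 reads except COL1A1 and, in A549, LUM, and summed to 1.46 to 6.41 rpkM. Of 5 multiciliated-cell markers, 1 or 2 reached 10 reads and the sum was 1.42 to 1.72 rpkM. No blood marker reached 10 reads.

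Together, the 10 isotypes took 37797 reads or 0.821% (exact binomial interval 0.812 to 0.829%) of mapped reads in HBE LIEA, 19692 reads or 0.474% (0.467 to 0.481%) in A549 LIEA and 54186 reads or 0.550% (0.546 to 0.555%) in HBE Smart-seq2. The summed alpha level was 2173 rpkM in HBE LIEA, 1282 rpkM in A549 LIEA and 1703 rpkM in HBE Smart-seq2. The summed beta level was 1963, 1093 and 1036 rpkM in the same order. The tubulin transcripts were thus most abundant in the HBE LIEA library for both families.

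Among the alpha isotypes, TUBA1B, the ubiquitous form, had 7164 reads (log2 rpkM 9.79) in HBE LIEA, 3381 reads (8.86) in A549 LIEA and 11517 reads (9.38) in HBE Smart-seq2. By rpkM it was the highest alpha isotype in all 3 libraries and ranked 47th among the 16073 genes listed in HBE LIEA. By reads, TUBA1A was above it in A549 LIEA (3628 against 3381). The order by rpkM rests on the lengths in the deposited values and on the uncertain split of reads between the TUBA1 genes. TUBA1C, another broadly expressed form, had 4727 reads (9.37), 2506 reads (8.60) and 6281 reads (8.68) in the same order of libraries. TUBA1A, the form most abundant in developing neurons, had 5345 reads (8.87), 3628 reads (8.46) and 11456 reads (8.88). TUBA4A, the alpha-tubulin that is made without the C-terminal tyrosine, had 1791 reads (7.28), 784 reads (6.24) and 3787 reads (7.27), the lowest alpha level in each library.

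Among the beta isotypes, TUBB, the constitutive form, had 11818 reads (log2 rpkM 10.01) in HBE LIEA, 5568 reads (9.08) in A549 LIEA and 13267 reads (9.08) in HBE Smart-seq2. TUBB4B, which is broadly expressed and is also found in cilia, had 5717 reads (9.61), 2291 reads (8.44) and 6288 reads (8.65). Those 2 genes stood well above the other beta isotypes in every library. TUBB6, a minor form with low levels in most tissues, had 648 reads (6.28), 602 reads (6.32) and 891 reads (5.64). TUBB3, the beta-tubulin used as a marker of neurons, had 445 reads (5.73), 659 reads (6.44) and 220 reads (3.61). Of the 9 members listed in all libraries, TUBB3 had the widest range of levels. TUBB2A, abundant in brain, had 140 reads (4.23), 246 reads (5.19) and 479 reads (4.91). TUBB2B, which is needed for migration of cortical neurons, had 2 reads (-2.22) in HBE LIEA, 27 reads (1.69) in A549 LIEA and no read in Smart-seq2, where a count of 0 allows up to 3 reads. With the sequences that TUBB2A and TUBB2B share, 479 Smart-seq2 reads were listed on TUBB2A and 0 on TUBB2B.

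**Figure D2:**
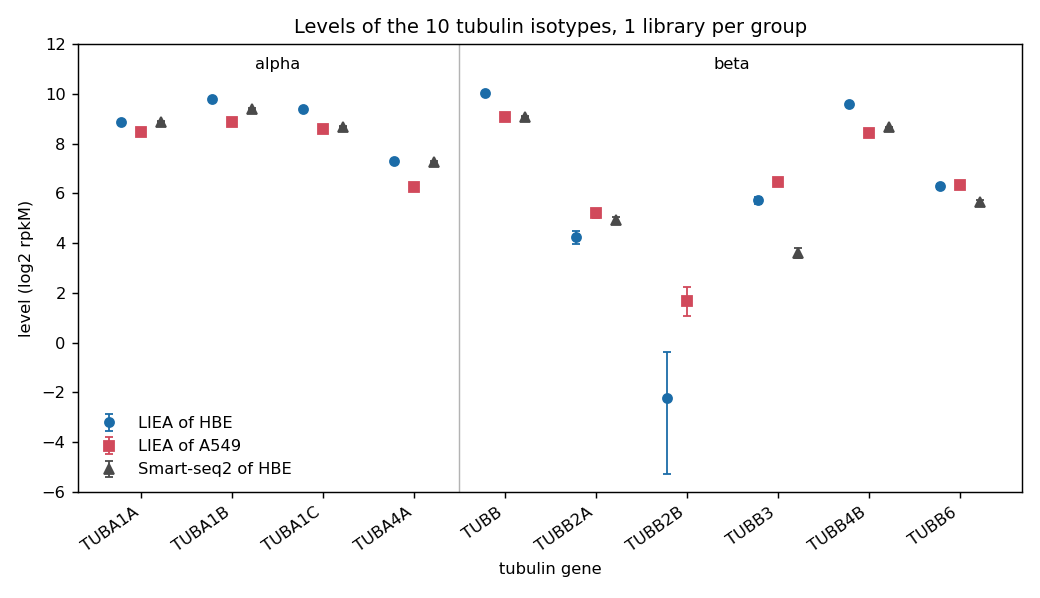
Level of each isotype in log2 rpkM on the vertical axis, alpha isotypes left and beta isotypes right, with 1 point per library and 95% Poisson intervals of the reads. TUBB2B has no Smart-seq2 point because it was not listed there. TUBB, TUBB4B and the TUBA1 genes lie above 8 in every library, and TUBB3 lies at 5.73 and 6.44 in the LIEA libraries and at 3.61 in Smart-seq2.

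By level per length, the order in HBE LIEA was TUBB, TUBA1B, TUBB4B, TUBA1C, TUBA1A, TUBA4A, TUBB6, TUBB3, TUBB2A and TUBB2B, and no counting interval overlapped that of its neighbour. In A549 LIEA the order was TUBB, TUBA1B, TUBA1C, TUBA1A, TUBB4B, TUBB3, TUBB6, TUBA4A, TUBB2A and TUBB2B. There, the intervals of TUBA1A and TUBB4B overlapped, as did those of TUBB3 and TUBB6 and those of TUBB6 and TUBA4A. In HBE Smart-seq2 the order was TUBA1B, TUBB, TUBA1A, TUBA1C, TUBB4B, TUBA4A, TUBB6, TUBB2A and TUBB3, with TUBA1C and TUBB4B overlapping. TUBB3 therefore stood above TUBB2A in both LIEA libraries (52.9 against 18.8 rpkM in HBE, 86.9 against 36.6 rpkM in A549) and below it in the Smart-seq2 library (12.2 against 30.1 rpkM).

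The comparison of the 2 cell lines by the same method asked how tubulin transcripts differ between HBE and A549. The 6 isotypes that were most abundant in HBE were lower in A549, TUBB4B and TUBA4A by more than 2-fold, whereas TUBB3 and TUBB2A were higher by less than 2-fold. The counting intervals of TUBA4A and TUBB2A included 2-fold. Fewer cells of a type and less RNA per cell cannot be told apart in such bulk samples. Of the 10 members, 9 had at least 10 reads in both libraries, of which 0 were at least 2-fold higher in A549 and 2 were at least 2-fold lower. Among all 11279 genes with that many reads, 13.4% were at least 2-fold higher and 17.3% at least 2-fold lower, so the count of members was close to that of genes in general. The median log2 ratio was -0.77 over the 9 members and -0.16 over all these genes. It was -0.85 over the 4 alpha isotypes and 0.04 over the 5 beta isotypes that passed.

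TUBB4B had 780 rpkM in HBE and 347 rpkM in A549, a log2 ratio of -1.17 (-1.24 to -1.10). TUBA4A, at 156 against 75.5 rpkM, had a log2 ratio of -1.04 (-1.17 to -0.92). Another member matched 8.80% of the windows of TUBB4B and none of those of TUBA4A. Tubulin genes outside the 10 and pseudogenes were not compared. TUBB, the other member with no matched window, had 1033 against 540 rpkM and a log2 ratio of -0.94 (-0.98 to -0.89). TUBA1B, at 888 against 465 rpkM, had a log2 ratio of -0.93 (-0.99 to -0.88). TUBA1C had 661 against 388 rpkM and a ratio of -0.77 (-0.84 to -0.70). TUBA1A, the neuron-associated member of the cluster, had the smallest difference among the alpha isotypes, at 469 against 353 rpkM and a log2 ratio of -0.41 (-0.47 to -0.35). With the reads of the 3 TUBA1 genes summed, the log2 ratio was -0.71 (-0.74 to -0.67).

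TUBB3 was higher in A549, at 86.9 against 52.9 rpkM, 1.64-fold (1.45 to 1.86), and 81.2% of the compared genes lay below its ratio. TUBB2A was 1.95-fold higher (1.58 to 2.42), at 36.6 against 18.8 rpkM. TUBB2B did not pass the filter, with 27 reads in A549 against 2 in HBE, a ratio of 14.97 (3.76 to 130). Summed, TUBB2A and TUBB2B had 273 reads against 142 and were 2.13-fold higher (1.73 to 2.63). TUBB6 had 79.8 against 77.5 rpkM, and its interval of log2 ratio, -0.12 to 0.21, included 0. The median of genes with at least 100 reads in both libraries lay at -0.17 and the ratio of summed rpkM at 0.16 on the log2 scale. With rpkM rescaled to the same sum, 4 members rather than 2 were past 2-fold, and TUBB6 changed sign, to -0.12. The share of all genes past 2-fold on that scale was not counted. With the median log2 ratio set to 0, TUBB4B (-1.01) and TUBB2A (1.13) were past 2-fold and TUBA4A (-0.88) was not. Of all genes with at least 10 reads in both libraries, 16.5% were then at least 2-fold higher and 13.1% at least 2-fold lower.

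Of the 6 neuron markers, RBFOX3, SNAP25, SYP and MAP2 had more reads in A549 than in HBE by LIEA, as TUBB3, TUBB2A and TUBB2B did. TUBA1A, also best known from neurons, went the other way, with 3628 reads in A549 against 5345 in HBE. RBFOX3 had 111 reads in A549, SNAP25 88, SYP 32 and MAP2 107, the last against 20 in HBE. DCX had 7 reads in A549 against 10 in HBE, and ELAVL4 1 against 0. In A549 LIEA the 6 markers summed to 34.4 rpkM, of which RBFOX3 made 17.9 rpkM. In HBE LIEA they summed to 0.691 rpkM, with RBFOX3, SYP, SNAP25 and ELAVL4 at 0 reads, and in HBE Smart-seq2 to 0.609 rpkM, with RBFOX3, SNAP25 and ELAVL4 at 0 reads. Their part in the levels of the beta isotypes was not tested.

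**Figure D3:**
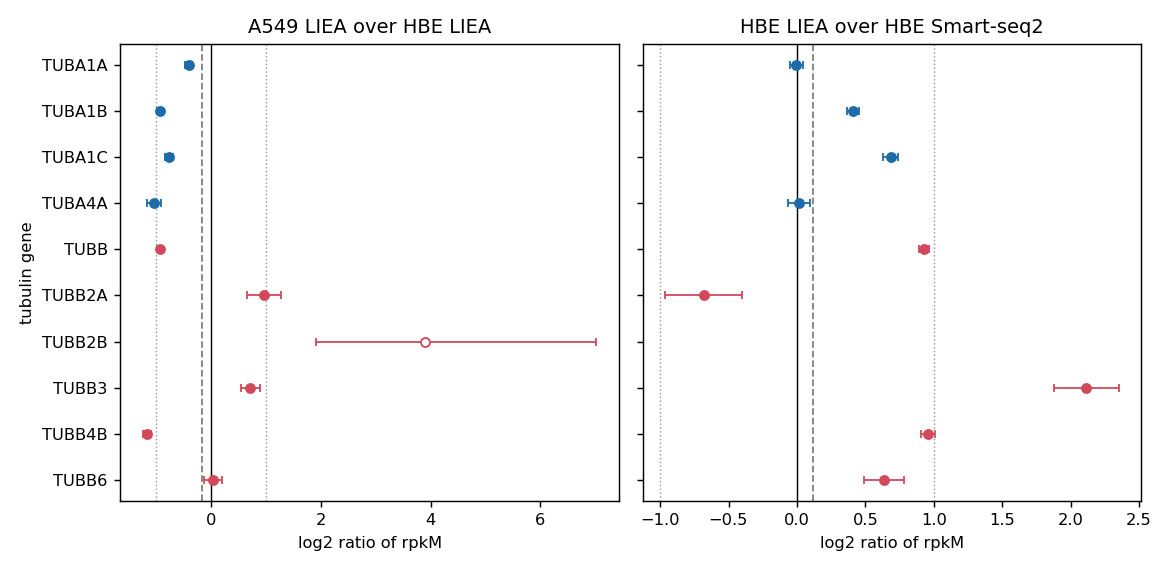
Log2 ratio of rpkM for each isotype (alpha blue, beta red) with 95% counting intervals, A549 over HBE by LIEA on the left and LIEA over Smart-seq2 in HBE on the right. Dotted lines mark 2-fold, the dashed line the median of genes with at least 100 reads in both libraries, and the open point TUBB2B, with 2 reads in HBE. TUBB4B and TUBA4A lie past 2-fold on the left, and TUBB3 lies at 2.11 on the right.

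The comparison of LIEA with Smart-seq2 on HBE mRNA addressed the method, and it shares the HBE LIEA library with the comparison of cell lines. The sequencer and the errors allowed in mapping (3 in Ion Torrent reads, 2 in Illumina reads) differed along with the method and cannot be told apart from it. TUBB3 was the member that differed most, 4.32-fold higher in LIEA, and 4 other beta or alpha isotypes, TUBB4B, TUBB, TUBA1C and TUBB6, were between 1.55-fold and 1.94-fold higher. TUBA1A and TUBA4A had nearly the same level by both methods, and TUBB2A was lower in LIEA. Of the 10 members, 9 passed 10 reads in both, of which 1 was at least 2-fold higher in LIEA and 0 were at least 2-fold lower. Among all 11705 genes that passed, 27.8% were at least 2-fold higher and 19.4% at least 2-fold lower, larger shares than among the members. With rpkM rescaled to the same sum, 3 members were past 2-fold, and the share of all genes on that scale was not counted. The median log2 ratio was 0.64 over the 9 members, 0.21 over the alpha and 0.93 over the 5 beta isotypes that passed, against 0.10 over all these genes.

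TUBB3 had 52.9 rpkM by LIEA and 12.2 rpkM by Smart-seq2, a log2 ratio of 2.11 (1.88 to 2.35), with 88.6% of the compared genes below it. TUBB4B had 780 against 401 rpkM, 1.94-fold (1.87 to 2.01), and TUBB had 1033 against 543 rpkM, 1.90-fold (1.86 to 1.95). TUBA1C, at 661 against 411 rpkM, was 1.61-fold higher (1.55 to 1.67). Within the beta family the members that differ between methods thus include abundant and rare ones. TUBB6 had 77.5 against 49.9 rpkM, 1.55-fold (1.40 to 1.72), and TUBA1B 888 against 668 rpkM, 1.33-fold (1.29 to 1.37). TUBA1A had 469 against 470 rpkM, with an interval of the fold from 0.965 to 1.03, and TUBA4A had 156 against 154 rpkM, from 0.955 to 1.07. TUBB2A alone pointed the other way, at 18.8 against 30.1 rpkM, a log2 ratio of -0.68 (-0.96 to -0.40). TUBB2B, with 2 and 0 reads, was at or under the floor of 3 reads in both, so no fold is given. The sum of the 3 TUBA1 genes had a log2 ratio of 0.33 (0.31 to 0.36).

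The GC content of the transcripts was set beside these ratios. TUBB3, with the highest GC content (62.2%), had the highest ratio, while TUBB4B and TUBB2A, both at 59.3%, lay on opposite sides of 0, and TUBB and TUBA1A, at 51.1% and 51.3%, had log2 ratios of 0.93 and -0.00. The part of GC content in the differences was not tested. Canonical exons of TUBB3 overlap by up to 1364 bases, on the same strand, with those of a gene annotated only as ENSG00000198211, and the part of such reads in the TUBB3 value was not tested.

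**Figure D4:**
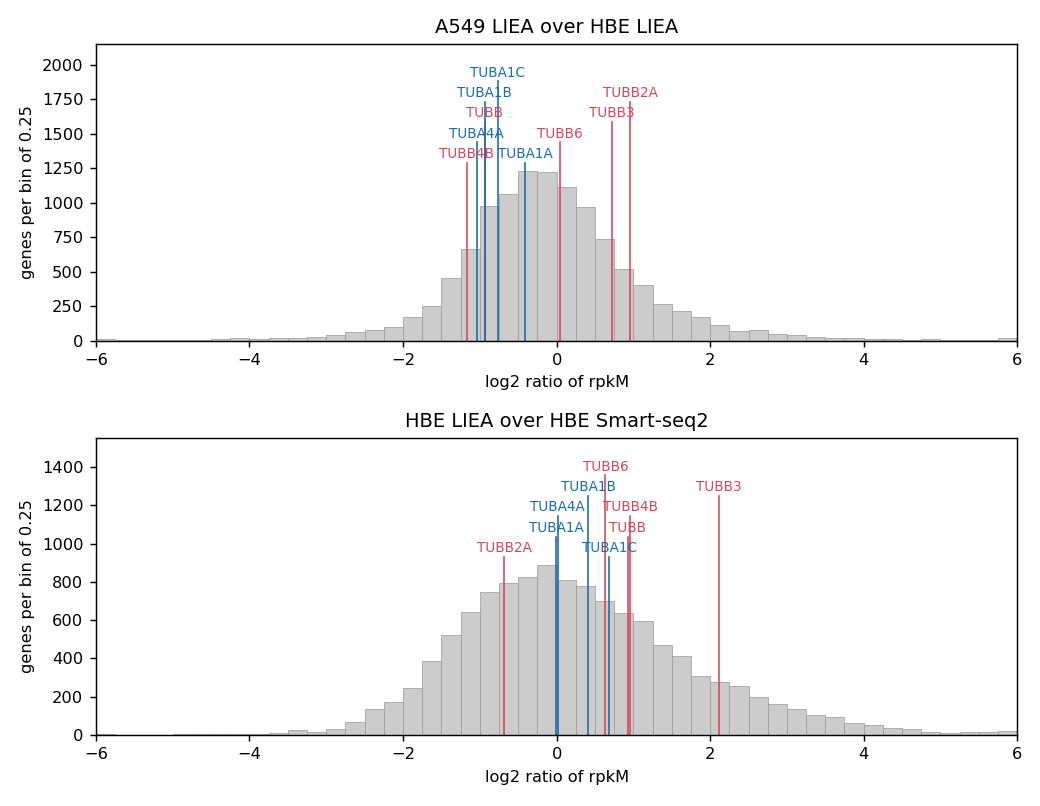
Distribution of log2 ratios over all genes with at least 10 reads in both libraries (grey bars, genes per bin of 0.25, values beyond 6 placed in the end bins), A549 over HBE by LIEA at the top and LIEA over Smart-seq2 in HBE below, with lines for the 9 isotypes that passed (alpha blue, beta red). The isotypes lie within -1.17 to 0.96 in the upper panel, and TUBB3 at 2.11 stands apart from the others in the lower panel.

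Levels in A549 were set beside those in both HBE libraries. The 6 isotypes that were most abundant in HBE were below both HBE values and the 4 others, TUBB2A, TUBB2B, TUBB3 and TUBB6, were above both, although the interval of TUBB6 overlapped that of HBE LIEA and its direction changed with rescaling. For TUBB the A549 level of 540 rpkM (526 to 554) and the Smart-seq2 level of HBE of 543 rpkM (534 to 552) had overlapping intervals, so the difference between the cell lines by LIEA was as large as that between the methods in HBE. TUBA4A, by contrast, was at 156 and 154 rpkM in the HBE libraries and at 75.5 rpkM in A549. TUBA1A was at 469 and 470 rpkM in the HBE libraries and at 353 rpkM in A549. Scaled by mapped reads, these 2 genes were the members on which the methods gave the same level within counting error. With rpkM rescaled to the same sum, the log2 ratios of LIEA over Smart-seq2 were 0.20 for TUBA1A and 0.21 for TUBA4A. With the median log2 ratio set to 0 they were -0.12 and -0.10. All of these lay beyond the counting intervals, so the sameness depends on the scaling. A549 and Smart-seq2 differ in both cell line and method, so no ratio between them is given.

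The makeup of each family was then compared as shares of the summed rpkM. TUBA1B held 40.9% (40.2 to 41.6%) of the alpha level in HBE LIEA, 36.3% (35.3 to 37.2%) in A549 LIEA and 39.2% (38.7 to 39.8%) in Smart-seq2. TUBA1A held 21.6%, 27.5% and 27.6%, and TUBA1C 30.4%, 30.3% and 24.1%. The share of TUBA1C had overlapping intervals in the LIEA libraries and was lower by Smart-seq2, and that of TUBA1A was lowest in the HBE LIEA library. TUBA4A held 7.16% (6.84 to 7.48%), 5.89% (5.49 to 6.30%) and 9.04% (8.76 to 9.32%).

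TUBB held 52.6% of the beta level in HBE LIEA, 49.4% in A549 LIEA and 52.4% in HBE Smart-seq2. TUBB4B held 39.7% (39.0 to 40.5%), 31.7% (30.7 to 32.7%) and 38.7% (38.0 to 39.4%). For those main beta isotypes the HBE libraries lay closer to each other than to A549. TUBB3 held 2.70% (2.45 to 2.94%), 7.95% (7.37 to 8.53%) and 1.18% (1.03 to 1.34%), and TUBB6 held 3.95%, 7.31% and 4.81%. TUBB2A held 0.956% (0.799 to 1.11%), 3.35% (2.94 to 3.76%) and 2.90% (2.64 to 3.16%), so its share in A549 was above that in HBE by LIEA while the interval overlapped that of HBE by Smart-seq2. TUBB2B held 0.0110%, 0.295% and 0%.

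**Figure D5:**
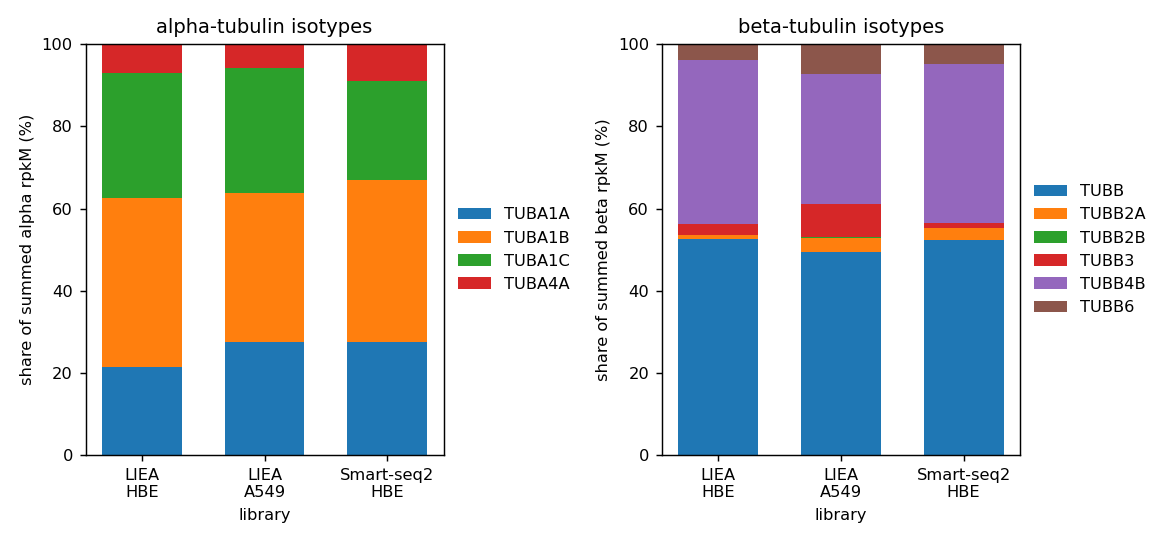
Share of the summed rpkM held by each isotype in percent, stacked to 100, for the alpha isotypes (left) and the beta isotypes (right), with 1 bar per library. TUBB and TUBB4B fill most of each beta bar, and TUBB3 takes 2.70% in HBE and 7.95% in A549 by LIEA.

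The ratio of the summed beta to the summed alpha level was 0.903 (0.885 to 0.922) in HBE LIEA, 0.853 (0.829 to 0.878) in A549 LIEA and 0.609 (0.598 to 0.619) in HBE Smart-seq2. The methods therefore differed more in this ratio than the cell lines did. Between methods, the summed beta level was 1.89-fold higher in LIEA (1.86 to 1.93) and the summed alpha level 1.28-fold higher (1.25 to 1.30). Between cell lines, the summed alpha level was 1.70-fold and the summed beta level 1.80-fold lower in A549.

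Genes that fold, modify or bind tubulin were counted from 4 lists, each beside the same shares of all genes (13.4% higher and 17.3% lower in A549, and 27.8% higher and 19.4% lower in LIEA than in Smart-seq2). Of 20 genes of tubulin folding, which hold the subunits of the chaperonin CCT, its partner prefoldin and the tubulin cofactors, all 20 passed in both comparisons. In A549, 2 were at least 2-fold higher and 3 lower, with a median log2 ratio of -0.16. TBCB, a cofactor that binds alpha-tubulin, had 817 reads against 256 and was 3.54-fold higher (3.07 to 4.09), and CCT5, a CCT subunit, had 1427 against 3588 reads and a log2 ratio of -1.18. Between the methods, 2 folding genes were higher and 9 lower in LIEA, with a median log2 ratio of -0.92. The largest differences among those with at least 100 reads in both were those of CCT2 (983 against 8753 reads, log2 ratio -2.06), CCT6A (-1.57) and PFDN2 (-1.55), 2 CCT subunits and a prefoldin subunit. The median of the folding genes thus lay below that of all genes in the comparison of methods, with single genes such as CCT7 (0.81) and PFDN5 (1.08) above it.

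Of 18 genes of tubulin modification, 12 passed in the comparison of cell lines, of which 5 were at least 2-fold higher and 1 lower in A549, with a median log2 ratio of 0.59. TTLL12, a member of the tubulin tyrosine ligase-like family, had 1624 reads in HBE and 197 in A549, a log2 ratio of -2.89. SIRT2 and HDAC6, both deacetylases of alpha-tubulin, were 2.63-fold (2.10 to 3.31) and 2.38-fold (2.01 to 2.84) higher in A549. Between the methods 13 passed, with 3 higher and 2 lower in LIEA and a median of 0.57. HDAC6 had 199 reads by LIEA and 164 by Smart-seq2, and was 2.59-fold higher (2.10 to 3.21).

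Of 19 genes of microtubule dynamics, 16 passed in each comparison. In A549, 2 were higher and 2 lower, with a median log2 ratio of -0.21, and MAP7, which binds along microtubules and recruits kinesin-1, was 2.26-fold higher (1.96 to 2.61). By LIEA against Smart-seq2, 2 were higher and 1 lower, with a median of 0.01, and CLASP1, a protein of growing microtubule ends, was 2.59-fold higher (2.28 to 2.94). Of 13 other tubulins, 6 passed between the cell lines, with 1 higher and 1 lower in A549 and a median of -0.13. Between the methods 4 passed, with 1 higher and 1 lower and a median of -0.23, and TUBG2, a gamma-tubulin of the nucleating complex, was 2.66-fold higher in LIEA (2.16 to 3.29).

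The genes whose levels lay nearest to those of a member were found by the Euclidean distance over the 3 log2 rpkM values, among 10889 genes with at least 10 reads in all 3 libraries. For TUBA1B they were HSP90AB1 (distance 0.289), RPL17 (0.375) and TUBB (0.429). TUBB was therefore the isotype closest to TUBA1B. For TUBB3 they included NPTN (distance 0.126), which had log2 rpkM of 5.79 in HBE LIEA, 6.42 in A549 LIEA and 3.72 in HBE Smart-seq2, and AP2A1 (0.294).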

How the data were processed

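PolyA + mRNA of HBE and A549 cells was measured in 3 libraries, 1 per group. The authors kept Ion Torrent reads longer than 42 nt, mapped reads with FANSe2 (version not given in the sources used here) to RefSeq-RNA, used hg19 for spliced mapping, merged splice variants and deposited log2 rpkM per gene, with no pseudocount and without genes lacking reads. Here, totals and reads were recovered from the steps of these values. All 18856 genes gave whole reads, and the recovered reads sum to 97.8 to 98.0% of the totals. In each library, 4 rows with date-like repeated names were left out. The recovery was tested on simulated data. Transcripts came from GENCODE release 44 on GRCh37. The length in the deposited values differs from the canonical transcript for some members (1553 against 2823 nt for TUBA1C and 2476 against 1672 nt for TUBA1A), so the shares of matched windows describe the annotation. The order of isotypes by rpkM and their shares of the summed rpkM rest on the lengths in the values. By summed reads, TUBA1A held 35.2% and TUBA1B 32.8% of the alpha level in A549 LIEA.

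The design was written for rpkM, and the values, being on the log2 scale, were first raised as powers of 2. Folds carry exact conditional binomial intervals, reads exact Poisson intervals and shares of reads exact Clopper-Pearson intervals, and no test was run with 1 library per group. A 2-fold threshold was used for genes with at least 10 reads in both libraries. The members and lists were chosen with earlier results of these data known. Named genes were all members, up to 3 genes per list with the largest absolute log2 ratio past 2-fold and at least 100 reads in both libraries, and the 3 nearest genes of TUBA1B and TUBB3, of which 1 is not reported here. Alternatives were other scalings, a pseudocount of 1, thresholds of 20 reads and 1.5-fold, summed reads, all listed tubulins in the sums, and other windows. The sums over near-identical isotypes were chosen after seeing the data. Scripts ran in Python 3.11.15 with biopython 1.88, pandas 2.3.3, scipy 1.17.1 and numpy 2.4.6, and figures were drawn with matplotlib 3.10.9.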

Additional observations from a re-analysis of the deposited data

How the results depend on the processing

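Each condition had 1 library, so no replicate could be left out. No paired analysis was possible because each group has 1 library. Of 54 log2 ratios under the alternatives, 3 changed sign. Of all 185 alternative values, 75 moved. For values from reads this meant beyond counting error or, for counts of members, by over 1.5 times. Among the 75, 15 were shares of matched windows of the reference transcripts, which carry no counting error. With rpkM rescaled to the same sum, TUBB6 in A549 over HBE was -0.12 on the log2 scale and TUBA1A in LIEA over Smart-seq2 was 0.20. With the median log2 ratio set to 0, TUBA4A in LIEA over Smart-seq2 was -0.10. These 3 genes had ratios near 0. The counts of members past 2-fold moved with the scale: with rescaled rpkM, 4 rather than 2 passed in A549 over HBE and 3 rather than 1 in LIEA over Smart-seq2, and at 1.5-fold 7 and 6 passed. The shares of all genes under rescaling and at 1.5-fold were not counted. These counts of members therefore have no background beside them and say nothing about tubulins in particular. With the median log2 ratio set to 0 the count in A549 over HBE stayed at 2, with TUBB2A in place of TUBA4A. By summed reads instead of rpkM, the ratio of beta to alpha was 0.986 in HBE LIEA, 0.912 in A549 LIEA and 0.640 in Smart-seq2. With the recovered reads as total, the tubulin share was 0.839%, 0.484% and 0.563%. The depth limits TUBB2B most, with 2, 27 and 0 reads.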

Other observations

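Some genes of the lists outside the named ones, chosen after their values were seen, differed between the cell lines, in both directions. MAP1B, which binds microtubules in axons, had 5 reads in HBE LIEA, 1479 in A549 LIEA and 31 in HBE Smart-seq2, a ratio of A549 to HBE by LIEA of 328 (140 to 1012). TUBB4A, a beta-tubulin of brain, had 33, 142 and 2 reads and was 4.77-fold higher in A549 (3.25 to 7.20). MAPT, which encodes tau, had 2, 31 and 35 reads, so it was also read in HBE by Smart-seq2. Per mapped read, its ratio of LIEA to Smart-seq2 in HBE was 0.122 (0.0142 to 0.475). TTLL6, a polyglutamylase of tubulin, and VASH2, which removes the C-terminal tyrosine of alpha-tubulin, had 104 and 39 reads in A549 and were not listed in either HBE library. In the other direction, STMN3, a stathmin of neurons, had 124 reads in HBE LIEA and 55 in A549 LIEA, and TTLL11, a polyglutamylase, had 38 and 3. STMN1, a tubulin-binding protein common in dividing cells, differed less, with 241, 283 and 939 reads.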
